A study of Homo sapiens with 18 samples.

Results

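This account asks whether a guide RNA against DDX3X changed gene expression to a different extent in cells that carried an extra, codon-optimised DDX3X than in their parental cells. The quantity is a difference of differences, the effect of guide 395 in DDX3Xoe cells minus its effect in parental cells, and it used 12 of the 18 libraries of the series, chosen by the cell and guide names in the labels. All cells were KNS-42, an established glioma cell line, with the Cas9 nuclease expressed in them. The 4 groups had 3 replicate libraries each: parental cells with guide AAVS1 (a control guide against a safe-harbour site), parental cells with guide 395 (against the endogenous DDX3X gene), and DDX3Xoe cells with each of these guides. Guides were delivered by lentivirus, all cells were kept in puromycin, and total RNA was extracted 7 days later. The labels name no clone, promoter or separate culture, so p-values measure the spread between these libraries, which may be technical.

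DDX3X is a DEAD-box RNA helicase that unwinds structured RNA and takes part in translation initiation, stress granules and antiviral signalling. Its gene lies on the X chromosome and has a close relative on the Y chromosome, DDX3Y, which can take over its essential work in cells that express it. An expression construct that the guide cannot cut is the usual control for a guide: effects of losing the target should shrink in its presence, while effects of the guide elsewhere should stay.

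Recovered gene reads ran from 5.67 M to 13.2 M per library (M, 1e6). The shallowest library was replicate 2 of DDX3Xoe cells with 395, with reads on 15744 genes. Levels below are normalised reads, gene counts divided by a size factor for each library. Log2 values are on the log2(normalised reads + 1) scale, on which changes of genes near 0 come out too small. A negative difference of effects means that 395 raised the gene less, or lowered it more, in DDX3Xoe than in parental cells. Reads came from the 3' ends of transcripts, and in bulk RNA fewer cells of a type and less RNA per cell cannot be told apart.

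The targeted gene, DDX3X (ENSG00000215301, GRCh38 chromosome X, 41333284 to 41364472, plus strand), gave 1780, 1923 and 1729 normalised reads in parental cells with AAVS1, replicates 1 to 3. With 395 it gave 861, 844 and 953. These groups did not overlap. The DDX3Xoe libraries gave 668, 1504 and 1162 with AAVS1 and 1416, 716 and 578 with 395. The DDX3Xoe libraries labelled replicate 1 thus ran the other way from replicates 2 and 3, with more DDX3X under 395 than under AAVS1, and the DDX3Xoe groups overlapped. The log2 effect of 395 was -1.03 in parental cells and -0.33 in DDX3Xoe cells, and neither passed (limma, adjusted p = 0.204 and 1.0). The difference between the lines was 0.70 (SE 0.489, 95% interval -0.35 to 1.75, limma adjusted p = 0.909). Without both DDX3Xoe libraries labelled replicate 1 it was -0.01 (interval -0.83 to 0.81). DDX3X in DDX3Xoe cells with AAVS1 was not above the parental level in any of the 3 libraries, and whether reads of the codon-optimised transcript enter this row was not given in the sources used here. DDX3Y had 0 reads in all 12 libraries. Because of this, the results below were also computed without those 2 libraries.

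Across the transcriptome, 1 of 14787 genes tested had a guide effect that differed between the lines (0.00676%, limma, adjusted p under 0.05), and it was lower in DDX3Xoe cells. At an unadjusted p under 0.05 there were 849 genes (5.74%), 352 with a higher (2.38%) and 497 with a lower (3.36%) effect in DDX3Xoe cells. In the same fit the parental guide effect called 55 genes (0.372%), 35 higher (0.237%) and 20 lower (0.135%) with 395. In DDX3Xoe cells 0 genes were called (0.0%), with 158 at an unadjusted p under 0.05 (1.07%). The difference had a median SE of 0.601 on the log2 scale, against 0.425 for the parental effect. With the replicate number as a block the difference called 2 genes with either form of the block, and the parental effect called 406 or 324. DESeq2 on the recovered reads called 30 genes for the difference, 11 higher and 19 lower, and edgeR called 1. Without the DDX3Xoe libraries labelled replicate 1, limma called 0 genes for the difference (0.0%), with 572 at an unadjusted p under 0.05 (3.93%), while edgeR called 0 and DESeq2 called 11.

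**Figure D1:**
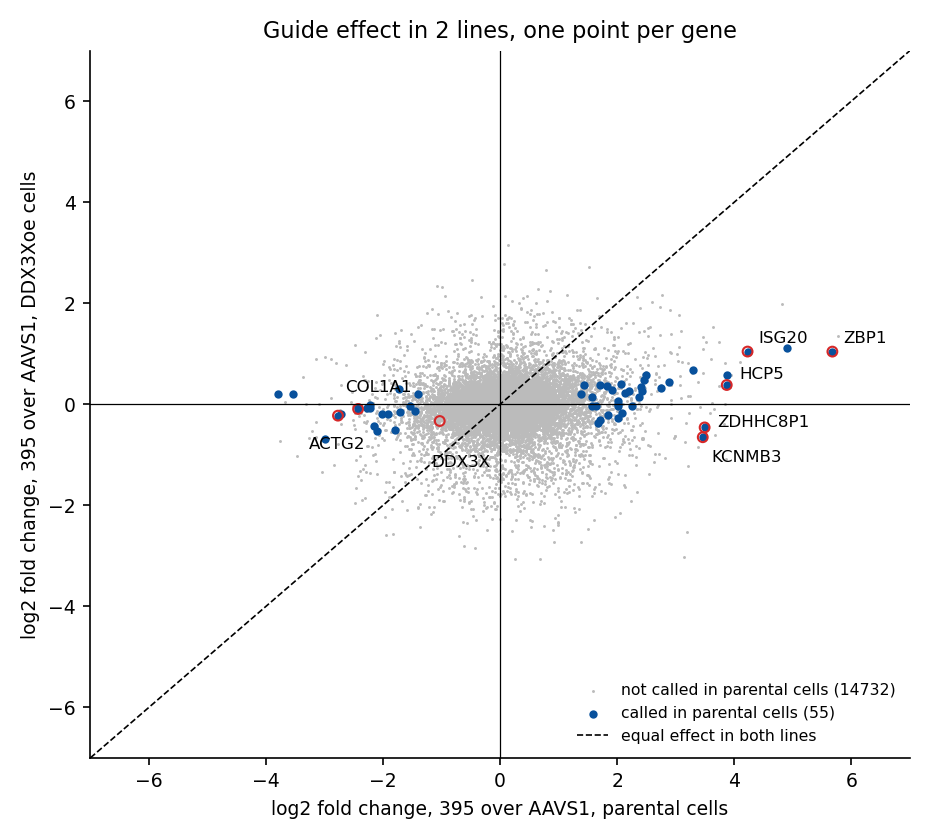
Each point is 1 gene; the x axis is the log2 effect of 395 over AAVS1 in parental cells and the y axis the same in DDX3Xoe cells, with the 55 genes called in parental cells in blue, red rings on the 8 labelled genes and a dashed line where both effects are equal. The blue points were chosen by the effect on the x axis, so their distance from 0 along it is fixed by the choice. Along the y axis their median was 0.26 for the 35 that rose and -0.11 for the 20 that fell, and ISG20 lay at 1.04.

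Fewer genes had large effects in DDX3Xoe cells. Among 9121 genes with a mean of at least 100 normalised reads, 797 had a parental effect of at least 1 on the log2 scale in either direction and 40 had one in DDX3Xoe cells. Without the libraries labelled replicate 1 the second number was 155. The parental and DDX3Xoe effects, which come from separate libraries, had a Pearson correlation across these genes of 0.185, or 0.371 without the libraries labelled replicate 1. Genes are not independent replicates, and no p is given.

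The called gene was ZDHHC8P1 (ENSG00000133519, chromosome 22, 23390606 to 23402726, minus strand), annotated as a transcribed unprocessed pseudogene, a gene copy without an intact reading frame. It gave 73.2, 90.6 and 60.2 normalised reads in parental cells with AAVS1 and 747, 928 and 857 with 395. All 3 parental libraries with 395 stood apart from the rest. DDX3Xoe cells had 105, 181 and 71.9 with AAVS1 and 86.8, 87.2 and 69.4 with 395, and these groups overlapped. The effect of 395 was 3.50 in parental cells (adjusted p = 0.00144) and -0.46 in DDX3Xoe cells, a difference of -3.95 (SE 0.482, 95% interval -4.99 to -2.92, limma adjusted p = 0.0198). Without the libraries labelled replicate 1 the difference was -4.04 (adjusted p = 0.133). With 1 library left out, the limma adjusted p was over 0.05 for 7 of the 12: 0.0676 and 0.104 without parental AAVS1 replicates 1 and 3, 0.074, 0.155 and 0.13 without parental 395 replicates 1, 2 and 3, and 0.0892 and 0.102 without DDX3Xoe 395 replicates 1 and 3. Its parent gene ZDHHC8, which encodes a palmitoyltransferase and was looked up after these values were seen, lies elsewhere on chromosome 22 (20129456 to 20148007, plus strand), and reads from the 2 copies may have been split in counting. ZDHHC8 gave 511, 42.2 and 121 normalised reads in parental cells with AAVS1 and 671, 361 and 379 with 395. In the DDX3Xoe line it gave 457, 12.8 and 68.6 with AAVS1 and 92.5, 162 and 66.7 with 395. Its guide groups overlapped in both lines, and its difference was -1.29 (adjusted p = 0.931).

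**Figure D2:**
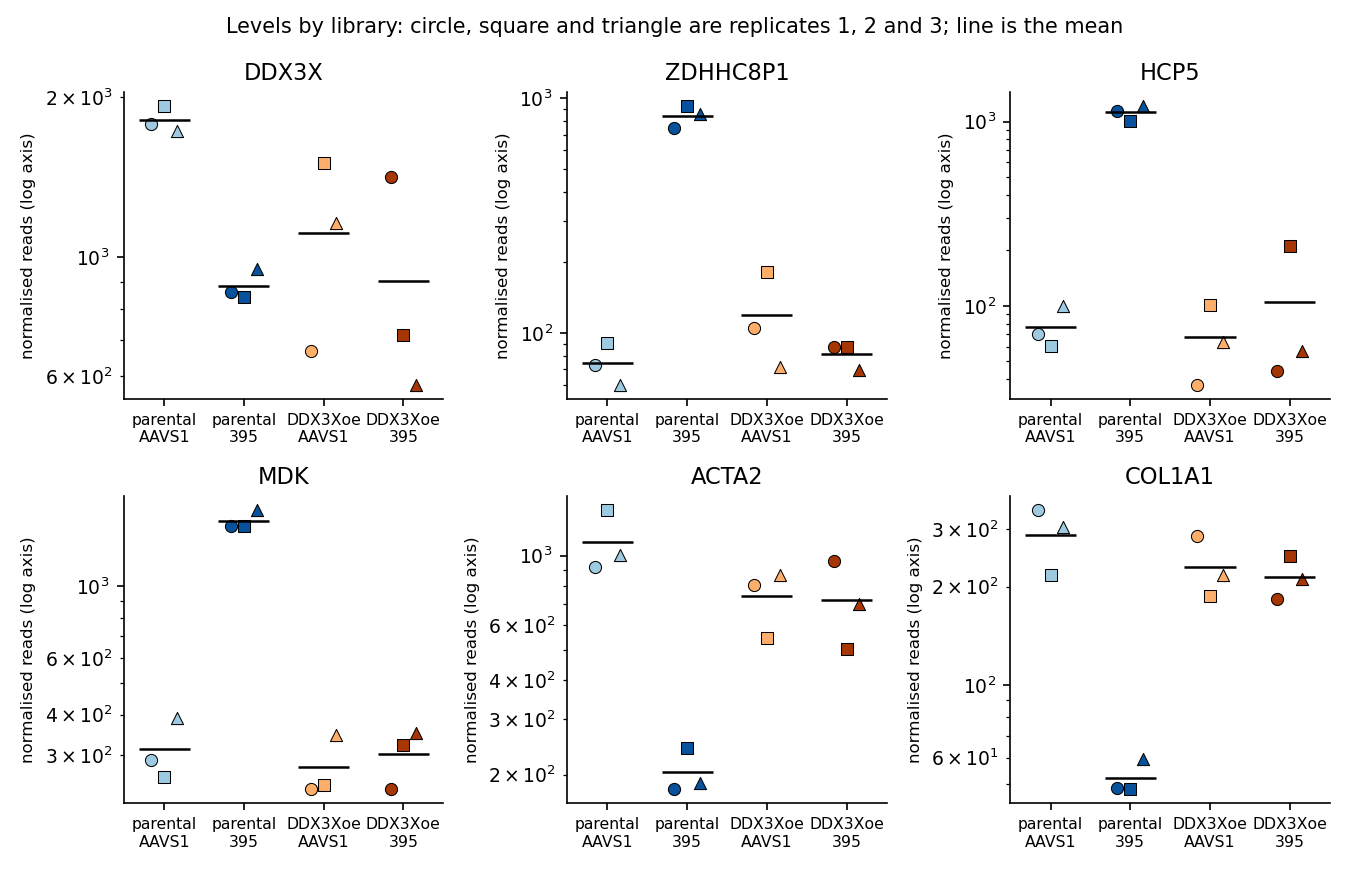
Normalised reads (log axis) of 6 genes in the 12 libraries by group; symbols are replicates 1 to 3 and the line is the group mean. For ZDHHC8P1, HCP5, MDK, ACTA2 and COL1A1 the parental libraries with 395 stand apart from all others, while DDX3X shows the replicate 1 libraries of DDX3Xoe cells running opposite to the rest.

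Interferon-stimulated genes, the antiviral effectors that cells switch on through interferon receptor signalling, had values of the difference below 0 in most members. Of 53 members tested, 50 had a difference below 0, against 51.9% of all genes, with a median of -0.84 against -0.03. The median effect of 395 was 1.48 in parental cells and 0.51 in DDX3Xoe cells. No member was called for the difference, and 6 had an unadjusted p under 0.05, against 5.74% of all genes. In parental cells 2 of the 53 rose in the test, ISG20 and IFI27, against 0.237% of all genes. With a replicate block shared by all libraries this was 18, and with one within each line 28, where 1.51% and 1.32% of all genes rose, and 0 members passed in DDX3Xoe cells with either. Without the libraries labelled replicate 1 the difference was below 0 in 52 of 53, with a median of -1.07. The members above 0 in all 12 libraries were IRF9 (0.88), STAT2 (0.08) and USP18 (0.05), the last of which restrains interferon receptor signalling.

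Many interferon-stimulated genes share a short promoter sequence, the interferon-stimulated response element, to which interferon-activated transcription factors bind. Its core was searched for as GAAANNGAAA on both strands, in RefSeq windows (GRCh38.p14) from 250 bases before to 50 after a gene's start. It was present in 3.57% of all 35116 windows and in 32 of 58 windows (55.2%) of the list's 41 genes found in the table. For the MHC class I list it was in 10 of 20 windows. A site of 30 bases from the 150 bases before the start is shown for 3 genes called in parental cells, because they carry this element in front of genes called in parental and not in DDX3Xoe cells, a contrast that did not pass as a difference for any of them. Matches are in capitals, on the gene's strand 5′ to 3′, and are a description of these letters only. IFI27 and TAP1 have 2 matches each, which overlap in TAP1. All 3 sites lie inside the longer gene models of GENCODE 29, those of ISG20 and TAP1 in an exon and that of IFI27 outside exons.
ISG20, chr15:88638937-88638966, plus strand: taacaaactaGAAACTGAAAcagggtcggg
IFI27, chr14:94110625-94110654, plus strand: cagTTTCGGTTTCctgGAAAATGAAAccta
TAP1, chr6:32853816-32853845, minus strand: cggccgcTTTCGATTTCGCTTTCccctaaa

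ISG20, an exonuclease that degrades viral RNA, gave 36.9, 32.3 and 244 normalised reads in parental cells with AAVS1 and 1585, 761 and 1684 with 395. Levels in DDX3Xoe cells were 21.7, 52.2 and 112 with AAVS1 and 48.0, 180 and 134 with 395. The parental guide groups did not overlap and the DDX3Xoe groups did. The effects were 4.23 in parental cells (adjusted p = 0.0361) and 1.04 in DDX3Xoe cells, a difference of -3.18 (SE 1.08) that did not pass (adjusted p = 0.83). IFI27, a small mitochondrial protein induced by interferon, gave 257, 206 and 555 normalised reads in parental cells with AAVS1 and 4055, 2976 and 2336 with 395. In DDX3Xoe cells it gave 102, 370 and 375 with AAVS1 and 195, 919 and 328 with 395. Here too only the parental guide groups stood apart. The difference was -2.62, or -2.74 without the libraries labelled replicate 1 (limma, adjusted p = 0.806 and 0.999). IFIT2, which binds foreign RNA, had effects of 3.22 and 0.82 in parental and DDX3Xoe cells and IRF7, an interferon-amplifying transcription factor, of 2.21 and 0.27. Neither gene passed for the difference.

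The list's DDX3Xoe values lay mostly above 0. For the same-numbered libraries 1, 2 and 3, the median log2 difference between 395 and AAVS1 was 0.82, 0.68 and 0.19 in DDX3Xoe cells and 1.67, 1.81 and 0.86 in parental cells. Of 53 members, 51 were above 0 in DDX3Xoe cells, against 48.4% of all genes, although 0 passed the test there and 1 had an unadjusted p under 0.05.

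MHC class I genes present peptides to T cells, and the list also holds the peptide transporters and immunoproteasome subunits that supply them. Of 18 members tested, 17 had a difference below 0, against 51.9% of all genes, with a median of -1.16. The median effect of 395 was 1.62 in parental and 0.35 in DDX3Xoe cells. In parental cells 5 rose in the test, where 0.237% of all genes did, among them HCP5, HLA-B, HLA-E and TAP1. In DDX3Xoe cells 0 did. No member was called for the difference, while 7 had an unadjusted p under 0.05, against 5.74% of all genes. Without the libraries labelled replicate 1 the median was -0.98, with 17 of 18 below 0. With the block shared or within each line the parental number was 9 or 11, where 1.51% and 1.32% of all genes rose. Class I genes are close in sequence, so reads may have been shared among them.

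HCP5, a long non-coding RNA of the class I region (chromosome 6, 31400702 to 31477506), gave 70.5, 60.8 and 100.4 normalised reads in parental cells with AAVS1 and 1144, 1010 and 1215 with 395. The DDX3Xoe libraries gave 37.4, 101.2 and 63.6 with AAVS1 and 44.5, 212 and 57.1 with 395. The parental 395 libraries were the only high ones. The difference was -3.49 (SE 0.73, adjusted p = 0.397), and with a replicate block within each line it passed (limma, adjusted p = 0.0491), but not with a shared block (0.0771). HLA-B gave 3813, 3109 and 6639 normalised reads in parental cells with AAVS1 and 38473, 25391 and 32598 with 395. DDX3Xoe cells had 2412, 4013 and 3193 with AAVS1 and 1870, 11472 and 3633 with 395. Replicate 2 with 395 was the only DDX3Xoe library above the control range. HLA-E had effects of 2.48 and 0.58 in parental and DDX3Xoe cells, and TAP1, a subunit of the peptide transporter, of 2.07 and 0.40. Replicate 2 was also the highest of the 3 DDX3Xoe libraries with 395 for HLA-E, TAP1 and ISG20, and it is the library with the fewest reads.

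Genes that sense nucleic acids had a median difference of -0.44 over 17 members, 13 of them below 0, against 51.9% of all genes. ZBP1, which detects Z-form nucleic acid and starts necroptosis, gave 1.34, 2.48 and 0 normalised reads in parental cells with AAVS1 and 147, 81.7 and 88.7 with 395. In the DDX3Xoe line it gave 0.985, 0 and 0 with AAVS1 and 0, 1.43 and 6.15 with 395, so it stayed near the limit of detection in that line. It passed the filter on low values only through the 3 parental libraries with 395, so its parental effect had to differ. For this reason the text gives its levels only. ZBP1 is still among the members counted above and the genes called in parental cells, and the plots of effects show it. TLR4, the receptor for bacterial lipopolysaccharide, went the other way. It gave 2999, 2375 and 1766 normalised reads in parental cells with AAVS1 and 985, 991 and 699.8 with 395. Levels in DDX3Xoe cells were 2462, 2174 and 1905 with AAVS1 and 2854, 2695 and 2010 with 395. TLR4 fell in parental cells (-1.40, adjusted p = 0.0419), and its difference was 1.60 (adjusted p = 0.564).

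NF-kB and inflammatory genes had a difference below 0 in 22 of 24 members, against 51.9% of all genes, with a median of -1.01. The median effect was 1.17 in parental and -0.06 in DDX3Xoe cells, where 11 members were above and 13 below 0. No member was called for the difference. In parental cells 0.237% of all genes rose in the test. PTGS2, the inducible cyclooxygenase of prostaglandin synthesis, was the 1 member that rose there (1.83, limma adjusted p = 0.0283). It gave 383, 278 and 493 normalised reads there with AAVS1 and 1184, 1149 and 1740 with 395. In DDX3Xoe cells it gave 182, 295 and 345 with AAVS1 and 410, 342 and 277 with 395. The DDX3Xoe groups overlapped, and the library labelled replicate 1 was the highest of its 395 group and the lowest of its AAVS1 group. The difference was -1.48, and -1.88 without these 2 libraries (limma, adjusted p = 0.747 and 0.999). With either replicate block 5 members rose in parental cells, where 1.51% (shared block) and 1.32% (within each line) of all genes did. Among them were CCL5 and BIRC3, an inhibitor of apoptosis (limma, adjusted p = 0.0166 and 0.0249 with the shared block, 0.0127 and 0.039 with the block within each line). CXCL11, a chemokine that draws T cells, could not have passed the filter on low values without the parental libraries with 395. It gave 114, 64.9 and 93.9 normalised reads there and at most 33.5 in any other library. Its difference had to be low and is not given, although it is among the members counted above. CCL5, another such chemokine, had a difference of -3.75 (SE 1.41), from low levels. CCL5 gave 386, 175 and 488 normalised reads in parental cells with 395 and at most 80.3 in any of the other 9 libraries. JUND, an AP-1 subunit from the immediate early list, had an effect of 1.02 in parental cells and -0.76 in DDX3Xoe cells, a difference of -1.78 (unadjusted p = 0.00207, limma adjusted p = 0.647).

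Several genes with the smallest p for a negative difference belonged to none of the lists. MDK, the heparin-binding growth factor midkine (chromosome 11, 46380756 to 46383837), gave 289, 257 and 392 normalised reads in parental cells with AAVS1 and 1538, 1537 and 1724 with 395. The DDX3Xoe libraries gave 235, 242 and 346 with AAVS1 and 235, 322 and 350.3 with 395. The 9 libraries outside the parental 395 group lay close together. The effects were 2.37 (adjusted p = 0.00368) and 0.14, and the difference of -2.23 (SE 0.38) had an adjusted p of 0.226, or 0.0416 with a block shared by all libraries and 0.113 with a block within each line (limma). KCNMB3, a regulatory subunit of large-conductance potassium channels, gave 29.5, 12.4 and 23.4 normalised reads in parental cells with AAVS1 and 279.6, 244 and 194 with 395. DDX3Xoe cells had 40.4, 27.7 and 33.1 with AAVS1 and 22.8, 40.0 and 9.66 with 395. It rose in parental cells (3.46, adjusted p = 0.0124), and the difference of -4.12 did not pass (limma, adjusted p = 0.226).

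TOB2, of the antiproliferative BTG/TOB family, gave 326, 256 and 467 normalised reads in parental cells with AAVS1 and 1180, 1408 and 1821 with 395. In the DDX3Xoe line it gave 391, 601 and 358 with AAVS1 and 385, 357 and 419.7 with 395. It rose in parental cells (2.09, adjusted p = 0.0104), the DDX3Xoe effect was -0.18, and the difference was -2.27 (adjusted p = 0.23). DGKQ, a diacylglycerol kinase, and CBARP, a regulator of voltage-gated calcium channels, rose in parental cells by 1.92 and 1.68, and had DDX3Xoe effects of 0.28 and -0.36. For CBARP the DDX3Xoe groups did not overlap either, in the opposite direction: 226, 255 and 261 normalised reads with AAVS1 and 201, 203 and 172 with 395. HOMEZ, a homeobox protein, had the same opposed pattern. It gave 38.9, 32.3 and 44.6 normalised reads in parental cells with AAVS1 and 203, 129.9 and 107 with 395. The DDX3Xoe means were 57.8 ± 19.6 with AAVS1 and 22.3 ± 12.6 with 395 (SD, n = 3), and these groups were just apart. Its effects were 1.86 and -1.43, neither called, though the parental one passed with either replicate block (limma, adjusted p = 0.0329 and 0.0403). Its difference of -3.29 (SE 0.68) had an adjusted p of 0.397. Groups were apart for 20.8% of all genes in parental cells and for 3.79% in DDX3Xoe cells.

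The complement genes C1R, a protease of the classical pathway, and SERPING1, its inhibitor, rose in parental cells by 2.43 and 2.76 (limma, adjusted p = 0.019 and 0.0463). Their DDX3Xoe effects were 0.26 and 0.33. In both, the DDX3Xoe library with 395 replicate 2 was the highest of its line, at 1055 normalised reads for C1R and 456 for SERPING1. CSAG1, a cancer-testis antigen with near-identical relatives on chromosome X, gave 139.8, 71.8 and 70.9 normalised reads in parental cells with 395. It gave at most 14.3 in any other library. Like ZBP1, it could not have passed the filter on low values without the parental libraries with 395, so its parental effect had to differ. TMCO4 rose in parental cells by 2.01 and had a DDX3Xoe effect of -0.28.

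**Figure D3:**
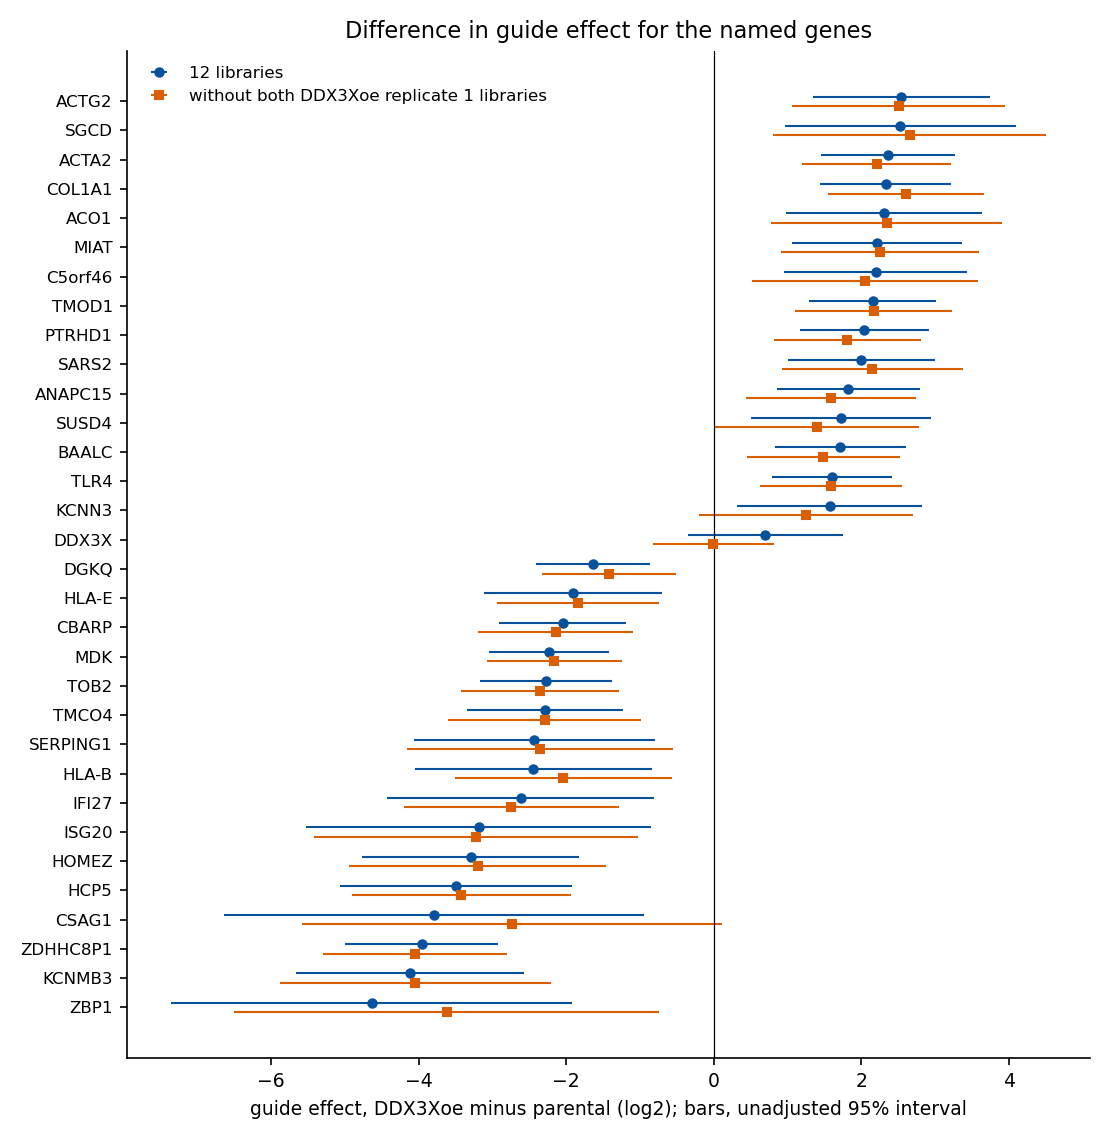
Points are the guide effect in DDX3Xoe minus that in parental cells (log2) for DDX3X and the genes named by size of the parental effect or by p of the difference, bars are unadjusted 95% intervals, blue with 12 libraries and orange without both DDX3Xoe libraries labelled replicate 1. The genes were chosen for large values, so only the shift between the colours is of interest. DDX3X moves from 0.70 to -0.01 and the others stay on their side of 0. ZBP1 and CSAG1 could not have passed the filter on low values without the parental libraries with 395, so their differences had to be low.

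Smooth muscle and contractile genes, which build actin filaments and the tension-bearing cytoskeleton, ran the other way. Their parental effects of 395 lay mostly below 0 and their DDX3Xoe effects nearer 0. Of 21 members tested, 19 had a difference above 0, against 48.1% of all genes, with a median of 0.73. The median effect was -0.75 in parental and -0.06 in DDX3Xoe cells. In parental cells 3 fell in the test, ACTA2, ACTG2 and TMOD1, where 0.135% of all genes fell. In DDX3Xoe cells 0 did. With the shared block 8 fell and with the block within each line 7, where 1.23% and 0.872% of all genes fell. No member was called for the difference, and 6 had an unadjusted p under 0.05, against 5.74% of all genes. Without the libraries labelled replicate 1 the median difference was 0.71, again with 19 of 21 above 0. The median DDX3Xoe effect was then -0.25, with 16 of 21 below 0. TAGLN, named after its values were seen, had effects of -1.62 in parental and -0.58 in DDX3Xoe cells with all 12 libraries.

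ACTA2, smooth muscle alpha-actin (chromosome 10, 88935074 to 88991339), gave 919.8, 1395 and 1005 normalised reads in parental cells with AAVS1 and 180.2, 243 and 188 with 395. Levels in DDX3Xoe cells were 808, 546 and 868 with AAVS1 and 958, 502 and 699.8 with 395. The parental 395 libraries were the only low ones. The difference was 2.36 (SE 0.42, 95% interval 1.45 to 3.27, limma adjusted p = 0.226). ACTG2, smooth muscle gamma-actin, gave 291, 362 and 418 normalised reads in parental cells with AAVS1 and 31.7, 46.2 and 89.7 with 395. In DDX3Xoe cells it gave 214, 143 and 306 with AAVS1 and 192, 147 and 206 with 395. The difference was 2.54 (SE 0.56, adjusted p = 0.411). TMOD1, which caps the slow end of actin filaments, and CNN1, calponin, had parental effects of -2.22 and -2.26 and DDX3Xoe effects of -0.06 and 0.01, of which the parental effect of TMOD1 passed and that of CNN1 did not (limma, adjusted p = 0.00557 and 0.0937; 0.00874 and 0.0147 for CNN1 with the 2 forms of the block).

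The CArG box is the sequence that serum response factor binds in front of actin and other contractile genes. It was found in 1.29% of all 35116 windows and in 7 of 35 windows of the list's 19 genes found in the table. ACTG2 is shown because its 150 bases before the start hold 2 matches, in capitals, on the gene's strand 5′ to 3′. They are no measure of binding, and both sites lie inside the longer GENCODE 29 gene model, the downstream one with 11 of its 30 bases in an exon.
ACTG2, upstream site, chr2:73892888-73892917, plus strand: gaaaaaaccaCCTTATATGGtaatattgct
ACTG2, downstream site, chr2:73892925-73892954, plus strand: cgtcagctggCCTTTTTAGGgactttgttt

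COL1A1, a chain of type I collagen (chromosome 17, 50183289 to 50201632), gave 342, 217 and 303 normalised reads in parental cells with AAVS1 and 48.4, 48.2 and 59.5 with 395. The DDX3Xoe libraries gave 285, 188 and 217 with AAVS1 and 183, 247 and 211 with 395. The groups were far apart in parental cells and overlapped in DDX3Xoe cells. Its difference of 2.33 (SE 0.41, limma adjusted p = 0.226) was 2.61 without the libraries labelled replicate 1, and it had the smallest unadjusted p of all genes with a positive difference and a mean of at least 20, 6.84e-05. In the list of matrix and mesenchymal genes, which includes COL1A1, 11 of 24 members had a difference above 0 and 13 below, with a median of -0.13 that became 0.02 without those libraries. COL1A2, also of type I collagen, is counted among those below 0. It gave 74.7, 14.8 and 42.8 normalised reads in parental cells with 395 and at most 16.1 in any other library. It could not have passed the filter on low values without these parental libraries, so its difference had to be low and is not given. COL5A2, a chain of type V collagen, had effects of -1.08 in parental and 0.05 in DDX3Xoe cells, and the parental one passed with either block only (limma, adjusted p = 0.143, and 0.0249 and 0.0484 with the shared and the within-line block). SGCD, a sarcoglycan that links the cytoskeleton to the matrix, had effects of -2.72 in parental cells (limma, adjusted p = 0.0409) and -0.19 in DDX3Xoe cells.

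Among neural genes some fell with 395 in parental cells and others had values in the opposite direction. NES, the progenitor intermediate filament nestin, gave 599, 804 and 645 normalised reads in parental cells with AAVS1 and 151, 215 and 269 with 395. DDX3Xoe cells had 745, 1157 and 832 with AAVS1 and 993, 690.2 and 763 with 395. It fell in parental cells (-1.71, adjusted p = 0.0244), and the difference was 1.56 (SE 0.40, limma adjusted p = 0.639). MIAT, a long non-coding RNA of neural tissue, gave 2154, 1398 and 972 normalised reads in parental cells with AAVS1 and 347, 467 and 175 with 395. In the DDX3Xoe line it gave 2174, 1783 and 1685 with AAVS1 and 2034, 2344 and 1346 with 395. The difference was 2.22 (SE 0.54, adjusted p = 0.61). KCNN3, a calcium-activated potassium channel, NTRK3, the neurotrophin-3 receptor, and BAALC, a neuroectodermal gene, fell in parental cells by 2.11, 1.45 and 1.91, and their DDX3Xoe effects were -0.54, -0.13 and -0.20. NTRK3 was named after its values were seen, and BAALC is in no list. ELAVL3, a neuronal RNA-binding protein, had an effect of 1.36 in parental and -0.42 in DDX3Xoe cells, a difference of -1.78 (unadjusted p = 0.0153, limma adjusted p = 0.846). NCAN, the brain proteoglycan neurocan, had 1.10 and -1.75, a difference of -2.84 (unadjusted p = 0.0172, limma adjusted p = 0.846). Of 13 neuronal genes tested, 9 had a difference above 0 with a median of 0.51, which was 0.14 without the libraries labelled replicate 1. Of 22 glioma and neural progenitor markers, 14 were above 0 with a median of 0.21, or 0.39 without those libraries, and the sign of the median changed in 4 of 37 alternative settings.

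Single genes with the same shape had other roles. ACO1, the cytosolic aconitase that also acts as an iron-regulatory protein, gave 245, 458 and 161 normalised reads in parental cells with AAVS1 and 23.7, 33.5 and 41.7 with 395. The DDX3Xoe means were 281 ± 60.7 with AAVS1 and 185 ± 78.7 with 395 (SD, n = 3), with overlap. Its effects were -2.99 (limma, adjusted p = 0.0124) and -0.68. ANAPC15, a subunit of the anaphase-promoting complex, had effects of -2.02 and -0.19, and PTRHD1 of -1.74 and 0.31. SARS2, the mitochondrial seryl-tRNA synthetase, had groups that did not overlap in either line and moved in opposite directions: -1.37 in parental cells and 0.63 in DDX3Xoe cells, neither called, though the parental one passed with a shared block and not with a block within each line (limma, adjusted p = 0.0375 and 0.0613). C5orf46 and SUSD4 fell in parental cells by 2.27 and 2.15 and had DDX3Xoe effects of -0.07 and -0.43.

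Genes of the G2 and M phases of the cell cycle had a difference above 0 in 44 of 46 members, against 48.1% of all genes. Their median was 0.98. The median effect of 395 was -0.82 in parental and 0.01 in DDX3Xoe cells. No member was called for the difference or for the parental effect. For the difference 5 had an unadjusted p under 0.05, against 5.74% of all genes. With the shared block 3 (PLK1, TOP2A and CDC20) fell in parental cells, where 1.23% of all genes did. With the block within each line 2 did (PLK1 and TOP2A), against 0.872% of all genes. Without the libraries labelled replicate 1 the median was 0.70, with 42 of 46 above 0. The same-numbered medians differed between DDX3Xoe pairs, at 0.39, 0.03 and -0.34 for numbers 1, 2 and 3, and in parental cells they were -1.21, -0.82 and -0.41. TOP2A, the topoisomerase that untangles replicated chromosomes, gave 5973, 9777 and 4882 normalised reads in parental cells with AAVS1 and 979, 2127 and 2149 with 395. Levels in DDX3Xoe cells were 5305, 10447 and 4468 with AAVS1 and 11611, 5103 and 3469 with 395. The DDX3Xoe library with 395 labelled replicate 1 was the highest of all 12. The difference was 1.91 (limma, adjusted p = 0.846). PLK1, a mitotic kinase, had effects of -1.65 and 0.01. Genes of DNA replication and S phase were above 0 in 37 of 49, with a median of 0.32.

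**Figure D4:**
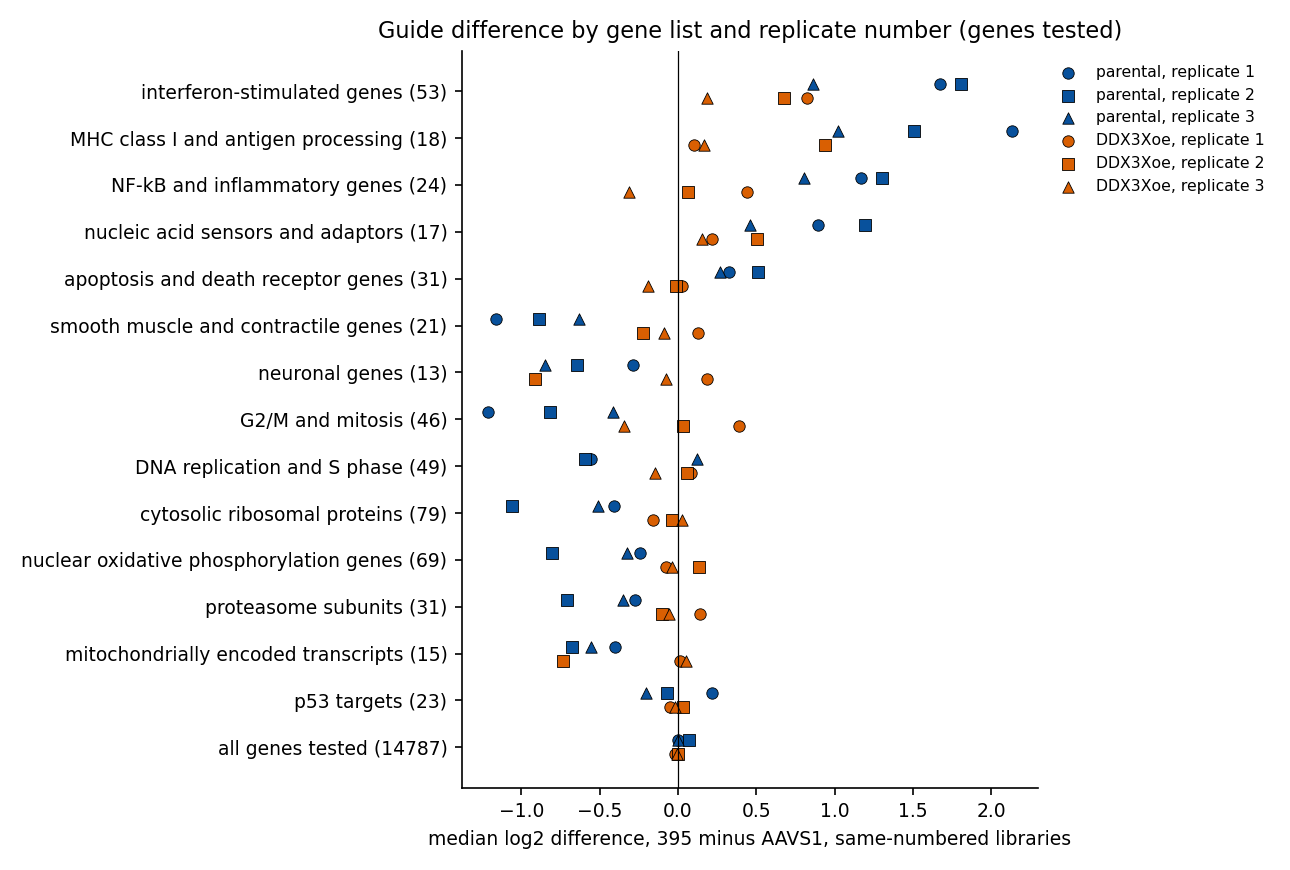
Median log2 difference between 395 and AAVS1 for same-numbered libraries, by gene list (genes tested in brackets); blue is parental, orange is DDX3Xoe, and symbols are replicates 1, 2 and 3. Interferon, MHC class I and NF-kB genes lie to the right and contractile, G2/M and ribosomal protein genes to the left in all 3 parental pairs. In these lists the DDX3Xoe pairs lie nearer 0. For neuronal genes and mitochondrially encoded transcripts, the DDX3Xoe pair numbered 2 lies further from 0 than any parental pair, at -0.914 and -0.732.

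Housekeeping groups showed smaller differences in the positive direction. Cytosolic ribosomal protein genes were above 0 in 65 of 79 members, against 48.1% of all genes. Their median was 0.56, from effects of -0.71 in parental and -0.09 in DDX3Xoe cells. RPLP0, a stalk protein of the large subunit, gave 8103, 10655 and 5643 normalised reads in parental cells with AAVS1 and 3739, 3508 and 2829 with 395. In DDX3Xoe cells it gave 10386, 3652 and 7428 with AAVS1 and 9570, 4740 and 7777 with 395. The DDX3Xoe pair numbered 2 was low under both guides, and the difference was 1.35 (SE 0.56, limma adjusted p = 0.864). These genes have many pseudogene copies that can share reads. Nuclear oxidative phosphorylation genes were above 0 in 56 of 69 (median 0.40) and proteasome subunits in 24 of 31 (median 0.39). In parental cells the pair numbered 2 had the largest fall in both lists. Medians for numbers 1, 2 and 3 were -0.241, -0.806 and -0.324 for oxidative phosphorylation and -0.275, -0.71 and -0.348 for the proteasome. Mitochondrially encoded transcripts were above 0 in 13 of 15 (median 0.47), or 11 of 15 (median 0.29) without the libraries labelled replicate 1, when their median DDX3Xoe effect went from -0.23 to -0.45. The mitochondrial share of all reads ranged from 7.78% to 16.5% over the 12 libraries, and was highest in parental AAVS1 replicate 2. None of these members was called for the difference or in either line, although 1 ribosomal protein gene fell in parental cells with a replicate block within each line. The part of depth or RNA quality in these values was not tested.

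In several lists the sign of the median difference depended on the setting. The median was -0.01 for p53 targets, 0.03 for endoplasmic reticulum chaperones, 0.03 for TGF-beta and YAP responsive genes and 0.17 for ATF4 and amino acid response genes. The sign changed in 12, 8, 17 and 6 of 37 alternative settings. It also changed for matrix and mesenchymal genes (8 of 37), endothelial and mural markers (16 of 37) and epithelial markers (12 of 37). In 5 others it changed in 0 of 37: the median was -0.36 for apoptosis and death receptor genes, -0.28 for immediate early genes and MYC, 0.37 for cholesterol synthesis, 0.35 for heat shock chaperones and 0.26 for translation factors. The DEAD-box helicases, the family of DDX3X, had a median of 0.14 with 17 of 30 above 0, and its sign changed in 4 of 37 settings. Stress granule proteins had a median of 0.10 with 17 of 25 above 0. EIF4A1, the helicase of the cap-binding complex, had the smallest p in its family (1.48, limma adjusted p = 0.846).

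The 55 genes called in parental cells can be followed in the DDX3Xoe libraries, which took no part in the parental effect other than through the shared estimate of spread. Of the 35 that rose, 24 were above 0 in DDX3Xoe cells, against 48.4% of all genes. Their median was 0.26 there and 2.14 in parental cells. Of the 20 that fell, 16 were below 0, against 51.6% of all genes. Their median was -0.11 there and -2.19 in parental cells. These genes were chosen for large parental effects, which enlarges the parental medians. A smaller median in DDX3Xoe cells was therefore fixed in part by the choice and does not measure how far the effect shrank. None of the 55 had an unadjusted p under 0.05 in DDX3Xoe cells, where 1.07% of all genes did. Without the libraries labelled replicate 1, 27 of 35 and 14 of 20 kept the parental sign, with medians of 0.40 and -0.24. Their difference between lines was opposite to the parental effect in 55 of 55, but the parental libraries that chose them also enter that difference, so the count is fixed in large part by the choice.

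Markers of other cell types were checked in the same libraries. Of 17 immune cell markers 3 passed the filter on low values and 6 had 0 reads in every library. Their summed level was 9200 to 19100 normalised reads in parental cells with AAVS1 and 15400 to 18400 with 395. In DDX3Xoe cells it was 7460 to 13000 with AAVS1 and 7840 to 11900 with 395, and nearly all of it came from CD74 and HLA-DRA, genes of class II antigen presentation. Endothelial and mural markers summed to 95.4 to 202, and epithelial markers to 173 to 532, over the 12 libraries. Glioma and neural progenitor markers summed to 64200 to 116000, with 3 of 30 at 0. Their part in the results was not tested.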

How the data were processed

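The libraries were made with a 3' end kit (QuantSeq, Lexogen) from total RNA, per the labels' protocols. The authors deposited a normalised signal for 58050 genes in 18 libraries, which is gene counts divided by 1 size factor per library, as dividing by the smallest positive value of each column gave whole reads for 100% of values (tolerance 0.01). Per the submitters' processing notes the tools were featureCounts 1.5.1, RSEM 1.3.0, STAR 2.5.2b and limma, on GRCh38, without a role for each. Strand setting and annotation release are not given in the sources used here. Guide sequences were not used here.

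Groups came from the labels. The filter kept genes that reached 10 in 3 or more of the 12 libraries. Values were tested as log2(value + 1) with limma 3.58.1 (R 4.3.3; 4 group means, intensity trend, 8 residual degrees of freedom), with Benjamini-Hochberg adjustment over all genes and a threshold of 0.05. Alternatives included edgeR 4.0.16 and DESeq2 1.42.0 on the recovered whole-read counts. The procedure was run on simulated counts with known differences, as a check of the code. Those counts had a fixed spread and no deviations shared by same-numbered libraries, unlike these data. The simulation therefore does not show what could be detected here. Gene positions are from GENCODE 29, which held 57446 of the identifiers.

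The comparison, gene lists and alternatives were chosen with earlier results of these data known. Named genes were DDX3X, DDX3Y, called genes of the difference (at least 20 mean reads) filled to 10 per direction by p, up to 4 members per list by p, and the 10 largest parental effects each way among called genes. ZDHHC8, TAP1, C1R, NTRK3, TAGLN, and the members named as exceptions of a list, were named after their values were seen. Some genes that meet these rules are not reported here.

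Same-numbered parental libraries deviated together (correlations 0.593, 0.217 and 0.303), and DDX3Xoe libraries gave 0.256, -0.03 and 0.314. Between the lines, same-numbered libraries gave 0.721, 0.406 and 0.43 with AAVS1 and 0.143, -0.033 and 0.21 with 395. The main fit had no block. Numbers were used as pairs only in the fits with a replicate block and in same-numbered differences. All replicate pairs differed by more than sampling noise (chi-square over its degrees of freedom was 33.3 or more).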

Additional observations from a re-analysis of the deposited data

Results flagged for a closer look

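The guide effect on ZDHHC8P1 differed between DDX3Xoe and parental cells by -3.95 on the log2 scale, by a test of the difference itself (limma, adjusted p = 0.0198). It was the only such gene of 14787 tested. Its same-numbered differences did not overlap between the lines, as for 15.9% of all genes. These are the same values that gave the call and add no support. The parent gene ZDHHC8 had a difference of -1.29, which became 0.06 without both DDX3Xoe libraries labelled replicate 1, and no explanation was tested.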

How the results depend on the processing

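The difference called 1 gene, and 7 with all 18 libraries, 4 with no intensity trend, 12 with quality weights, 2 with each replicate block (shared, or within each line), 30 with DESeq2 and 0 to 2 when 1 library was left out. It called 0 without both DDX3Xoe replicate 1 libraries (also with edgeR or 18 libraries; 11 with DESeq2, and 1, ZDHHC8P1, with a block within each line, adjusted p = 0.0212), without both of replicate 2 or of replicate 3 (both added after seeing the data), and without all 4 libraries of any number. ZDHHC8P1 kept its sign in all 37 alternatives (-4.27 to -3.60) and passed in 22 of them, and the 15 losses were all settings with libraries left out. Parental calls numbered 55, and 271 with 18 libraries, 220 with quality weights, 406 and 324 with the replicate block, 90 after quantile normalisation, 34 with edgeR TMM, 488 with DESeq2, 8 to 107 when 1 library was left out (fewest without parental AAVS1 replicate 2, most without DDX3Xoe AAVS1 replicate 1), 4, 0 and 0 without all 4 libraries of number 1, 2 or 3, and 14 without both DDX3Xoe replicate 3 libraries. Without both DDX3Xoe replicate 1 libraries they numbered 96, and then 491 with DESeq2, 370 with 18 libraries and 463 with a replicate block within each line. DDX3Xoe calls were 0 in every setting except DESeq2 without that pair, where 1 gene was called. The DDX3X difference of 0.70 was -0.007 without both DDX3Xoe replicate 1 libraries (also with 18 libraries or the block within each line) and -0.015 without all 4 libraries of number 1. That of ZDHHC8 turned to 0.059 without the pair (0.415 with edgeR or DESeq2) and ran from -2.524 to 0.004 when 1 library was left out. Combinations of a count model, 18 libraries or a block with leaving out the pair were added after seeing the data. List medians of the difference for interferon, MHC class I, NF-kB, contractile, G2/M and ribosomal protein genes kept their sign in all 37 alternatives. When 1 library was left out they ran from -1.473 to -0.536, -1.565 to -0.949, -1.478 to -0.735, 0.569 to 0.839, 0.6 to 1.331 and 0.348 to 0.794, in that order. With 3 libraries per group a difference had a median SE of 0.601, so differences near that size were not detectable in a single gene. Much larger ones also went uncalled, such as 2.36 for ACTA2 and -4.12 for KCNMB3 (limma, adjusted p = 0.226 for each). The lack of a call therefore does not show that a difference was absent.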
